A study of Mus musculus with 2 samples.

Results

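Tumour endothelial cells, the cells that line the blood and lymphatic vessels of a tumour, were described by single-cell RNA sequencing of 2 orthotopic mouse pancreatic tumours. They were chosen by their measured counts. A cell was taken as endothelial if Pecam1, Cdh5, Kdr and Egfl7 together gave at least 10 unique molecular identifiers (UMIs, counted RNA molecules) and at least 0.15% of its UMIs, with at least 1 UMI of Cdh5, less than 1% of UMIs from 3 collagen genes and at most 10 UMIs of Ptprc, the pan-leukocyte gene. This selected 181 of 24160 kept cells. KPC-shV, the first library by its label, gave 109 of 11713, and the library labelled KPC-shZEB1 gave 72 of 12447. The 4 gate genes chose the cells, so their levels are a description only.

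KPC cells are a mouse pancreatic cancer line that, per the study's methods, came from genetically engineered mice with a Pdx-1-Cre driver, which acts in the pancreatic lineage. Lentivirus-made stable lines carried either the control hairpin, named KPC-shV, or one directed at Zeb1, named KPC-shZEB1. They were injected into the pancreas, and the labels give 1 allograft tumour per group. The hairpin was in the injected cancer cells, while the endothelium came from the host, whose strain, sex and age the labels do not give. According to the study's text both tumours came from gemcitabine-treated mice, so the drug was shared by the groups, although the sample labels do not name it. With 1 tumour and 1 library per group, mouse, tumour, dissociation and group cannot be told apart, so no test was made. Intervals in parentheses are exact 95% intervals that cover counting error only, and paired values are given in the order library labelled KPC-shV, then library labelled KPC-shZEB1. Ratios between libraries are the second over the first. The word labelled is used because the targeted gene was not lower in the gated tumour epithelial cells of the library named for its knockdown. That class required UMIs of keratins and Epcam, so tumour cells low for these genes are not in it. The study's supplement lists a check of Zeb1 knockdown in the KPC line. In the gated tumour epithelial cells Zeb1 stood at 125 (119.9 to 130.4) and 167 (162 to 173) CPM (counts scaled to the UMIs of the class), a ratio of 1.34. Host classes without the hairpin differed. The ratio was 1.35 (1.27 to 1.44) in neutrophils and 1.64 (1.51 to 1.77) in macrophages. It was nearer 1 in fibroblasts, at 1.06 (0.996 to 1.13), and in B cells, at 1.05 (0.934 to 1.18). In endothelial cells Zeb1 was higher than in each of these classes in both libraries. It was close between the libraries, at 809 (774 to 845) and 777 (736 to 819) CPM.

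Endothelial cells form the inner wall of vessels, hold it closed with junctions of VE-cadherin and claudins, and lay down a basement membrane of type IV collagen and laminins. New vessels are led by tip cells, which follow vascular endothelial growth factor (VEGF) and are set apart from their neighbours by Notch signalling. Venous endothelium carries the selectins and adhesion molecules through which leukocytes leave the blood. Tumour vessels are known for sprouting, leakiness and uneven perfusion.

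The endothelial cells held 2456000 and 1766746 UMIs, with a median of 19123 (range 4027 to 54400) and 21306.5 (range 4701 to 58893) UMIs per cell. Fibroblasts, gated on collagens and Dcn, numbered 239 and 270 with median depths of 29139 and 28163 UMIs and served for comparison. None of the 46 barcodes present in both libraries was an endothelial cell. At the threshold, the endothelial cells with the fewest gate UMIs held 13 and 16, and the lowest shares were 0.151% and 0.16%. Just outside lay 8 and 3 cells with 5 to 9 gate UMIs that met the other limits, and 5 and 2 cells between 0.1% and 0.15%. All 4 gate genes were detected in 106 of 109 and 70 of 72 cells.

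As a class, the cells also carried endothelial genes that the gate did not use. All 22 genes of a pan-endothelial list were at least 2-fold higher in endothelial cells than in fibroblasts in both libraries, against 9.23% of the 10410 genes compared in this way (961 genes, ratio taken after adding 10 CPM). Plvap, which forms the diaphragms of fenestrated capillaries, was at 851 and 953 CPM in endothelial cells and at 3.77 and 3.95 CPM in fibroblasts. Emcn, a sialomucin of capillary and venous endothelium, was at 794 and 891 against 2.37 and 2.04 CPM, and Tie1, an endothelial receptor tyrosine kinase, at 121 and 138 against 0.279 and 0.637 CPM. In single cells the list ranged from 0 to 23779 and from 2588 to 20360 CPM, so at least 1 cell of the first library passed the gate without a UMI of it. The summed list was 36.3 (34.6 to 38.1) and 29.4 (28.1 to 30.7) times its fibroblast level. Because the gate defines both classes, these contrasts describe the cells and test nothing.

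**Figure D1:**
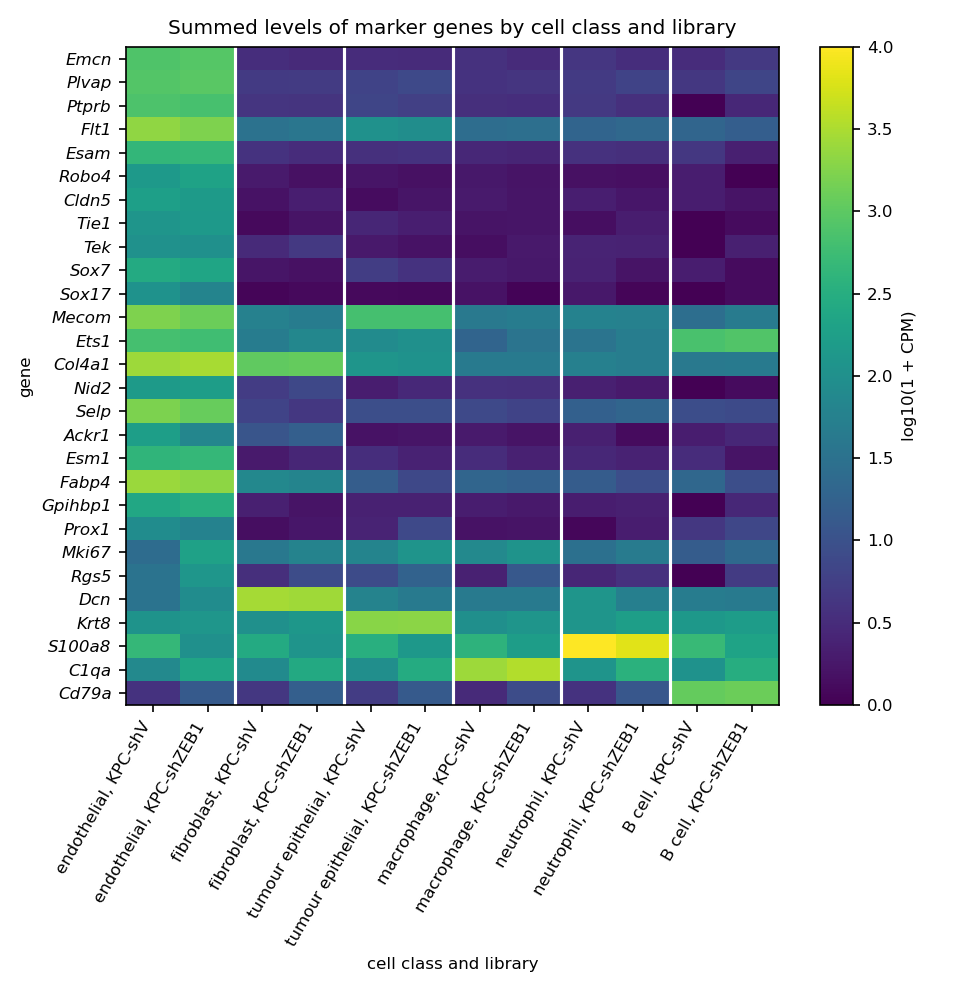
Heat map of summed gene levels, as log10 of 1 plus CPM, for named genes (rows) in 6 gated cell classes of each library (columns). Emcn, Plvap, Ptprb and most other genes of the upper rows are bright in the endothelial columns alone. Among the exceptions, Mecom is also bright in tumour epithelial cells, Ets1 in B cells and Col4a1 in fibroblasts. The lowest rows mark fibroblasts, tumour epithelial cells, neutrophils, macrophages and B cells.

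Outside the gate genes, the 15 genes with the largest endothelial over fibroblast ratios in both libraries were Cyyr1, Selp, Mctp1, Emcn, Plvap, Ptprb, Prex2, Cd93, Rapgef5, Adgrf5, Rasgrp3, Adgrl4, Esm1, Ubd and Flt1. Cyyr1 (GRCm38 chromosome 16, 85421533 to 85553397, minus strand) led them at 1738 and 1319 CPM against 4.74 and 3.06 CPM, a ratio of 366 (262 to 529.7) and 432 (289 to 675), and was detected in 98.2% and 100% of endothelial cells. Selp (GRCm38 chromosome 1, 164115264 to 164150026, plus strand) encodes P-selectin, a leukocyte-capturing selectin, and stood at 1615 and 1190.3 against 5.44 and 3.44 CPM, but in only 57.8% and 52.8% of the cells. Ptprb, the vascular phosphatase that restrains Tie receptors, was at 756 and 693 against 3.07 and 3.06 CPM. Cd93, a receptor of endothelial and myeloid cells, was at 867 and 839 against 7.67 and 7.0 CPM, and Esm1 (GRCm38 chromosome 13, 113209659 to 113218098, plus strand), a secreted proteoglycan of tip cells, at 409 and 469 against 0.977 and 1.66 CPM. The leading genes held both genes seen in nearly every endothelial cell and genes carried by a part of them.

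At the other end were Slit3, Tnfaip6, C3, Sfrp1 and Svep1, products of stromal cells. Slit3, a guidance ligand, was at 32.2 and 59.4 CPM in endothelial cells and 2962 and 2749 CPM in fibroblasts. In all, 909 of the 10410 genes (8.73%) were at least 2-fold lower in endothelial cells in both libraries.

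Endothelial transcription factors were next, and 16 of the 19 compared were at least 2-fold higher than in fibroblasts in both libraries. Mecom, a zinc-finger factor also present in epithelium, was at 1705 and 1270.1 against 56.1 and 47 CPM, and Ets1 at 659 and 600.0 against 46.2 and 69.4 CPM. Sox7, an endothelial SOX factor, was at 277 and 222 against 0.698 and 0.509 CPM, and Fli1, an ETS factor shared with blood cells, at 463 and 434 against 26.5 and 31.2 CPM. Klf2, a factor induced by flow, was at 551 and 546 against 445 and 423 CPM, and Klf4 was higher in fibroblasts, at 318 and 316 against 632 and 627 CPM. Tissue dissociation also induces both Klf genes, and the immediate early and heat shock list summed to 10358 and 9407 CPM in endothelial cells and 13216 and 11849.7 CPM in fibroblasts. Its part in the Klf levels was not tested. Among junction genes, 8 of 9 were higher than in fibroblasts by the same rule, among them Cldn5, the claudin of endothelial tight junctions, at 178 and 152 against 0.558 and 1.15 CPM, and Esam, an endothelial adhesion molecule, at 445 and 456 against 2.79 and 2.16 CPM.

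Since factors of the ETS family are known to bind endothelial promoters, RefSeq promoters (GRCm38.p6, 250 bases before to 50 after the gene start) were searched for the letters AGGAAG on both strands, which hold an ETS core. Of the 957 genes higher in endothelial cells outside the gate, 739 had a promoter in the table, with 1064 promoters. The letters stood in 35.4% of these, in 34.8% of 888 promoters of the lower genes, in 33.1% of 10674 promoters of all genes compared and in 35.4% of all 32851 promoters. In the pan-endothelial list only 10 of 22 genes matched, and 7 of their 12 promoters held the letters. The promoters printed here lie at chr4:118489800-118490099 (minus strand) for Tie1, chr5:147725962-147726261 (minus) for Flt1 and chr1:164115014-164115313 (plus) for Selp. They are shown for a receptor of the Tie family, a VEGF receptor and P-selectin, 3 of the genes described here, with matches in capitals (AGGAAG, or CTTCCT where it lies on the opposite strand). Each of these 3 promoters held 2 matches, whereas those of Tek, Cldn5 and Esm1, also described here, held 0. A match is a run of letters and not a measured site.
Tie1: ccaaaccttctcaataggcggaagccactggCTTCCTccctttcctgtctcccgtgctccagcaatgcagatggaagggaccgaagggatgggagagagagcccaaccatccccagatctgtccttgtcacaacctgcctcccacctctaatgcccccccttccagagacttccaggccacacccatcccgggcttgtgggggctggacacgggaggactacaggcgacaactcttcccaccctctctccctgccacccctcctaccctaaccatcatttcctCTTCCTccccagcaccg
Flt1: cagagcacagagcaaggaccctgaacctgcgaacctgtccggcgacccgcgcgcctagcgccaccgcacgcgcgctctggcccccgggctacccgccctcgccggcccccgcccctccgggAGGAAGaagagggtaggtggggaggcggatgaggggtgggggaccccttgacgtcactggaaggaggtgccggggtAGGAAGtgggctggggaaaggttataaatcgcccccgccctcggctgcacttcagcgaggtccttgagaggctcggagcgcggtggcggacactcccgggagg
Selp: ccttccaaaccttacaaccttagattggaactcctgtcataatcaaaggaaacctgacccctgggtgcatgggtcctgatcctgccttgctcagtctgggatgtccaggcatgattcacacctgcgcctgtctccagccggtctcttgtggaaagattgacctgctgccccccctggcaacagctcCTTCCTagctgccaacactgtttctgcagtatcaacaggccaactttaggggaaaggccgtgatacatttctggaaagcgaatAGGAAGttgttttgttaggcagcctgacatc

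In the signalling systems that guide vessels, receptors stood in endothelial cells and several ligands stood in fibroblasts. All 5 VEGF receptors were at least 2-fold higher than in fibroblasts in both libraries. Kdr is a gate gene. Flt1, a high-affinity VEGF receptor, was at 2154 and 1687 against 31.1 and 36.3 CPM, and Nrp2, a co-receptor, at 357 and 349 against 29.6 and 49.7 CPM. Vegfa, the main ligand of Kdr, was lower in endothelial cells, at 25.2 and 30.00 against 184 and 144 CPM, as was Vegfd, at 3.66 and 7.92 against 203 and 313 CPM. Pgf, a ligand of Flt1, had the opposite order, at 107 and 76.4 against 14 and 19.99 CPM. The angiopoietins were split between the classes. Angpt2, a ligand of Tek stored by endothelial cells, was at 270.0 and 251 against 2.79 and 2.16 CPM, and Angpt1, the perivascular ligand of Tek, at 1.22 and 9.06 against 73.9 and 63.2 CPM.

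Notch genes stood mainly in endothelial cells, with 4 of 7 compared higher than in fibroblasts by the rule above. Dll4, the Notch ligand of tip and arterial cells, was at 121 and 94 against 1.53 and 0.255 CPM, Notch1 at 175 and 151 against 10.9 and 14.8 CPM and Notch4, the endothelial receptor, at 62.3 and 77.5 against 2.09 and 2.42 CPM. Aplnr, the apelin receptor, was at 182 and 189 against 2.51 and 1.91 CPM, and its ligand gene Apln at 75.3 and 161 against 11.4 and 17.7 CPM. Cxcl12, which guides cells with the receptor Cxcr4, was at 46.8 and 127 CPM in endothelial cells and 349 and 433 CPM in fibroblasts, whereas Cxcr4 was at 79 and 66.8 against 10.6 and 10.3 CPM. Among 10 compared genes of the ALK1 and BMP system, 4 were higher in endothelial cells and 1 was lower. Eng, the co-receptor of ALK1, was at 500 and 528 against 53.4 and 54.9 CPM.

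Basement membrane genes were prominent in both classes. Col4a1, a chain of type IV collagen, was at 2578 and 2947 CPM in endothelial cells and 1064 and 1139.8 CPM in fibroblasts, Nid2, which links laminin to collagen, at 151 and 169 against 4.19 and 6.24 CPM, and Sparc, a matricellular protein, at 2757 and 3653 against 9669.9 and 11139 CPM. Of 14 genes, 7 were higher in endothelial cells and 2 lower. In the transport group, 11 of 15 were higher, among them Fabp4, a fatty acid carrier of capillaries, at 2472 and 2072 against 71.4 and 63.8 CPM, and Gpihbp1, which holds lipoprotein lipase on capillaries, at 246 and 325 against 1.26 and 0.637 CPM. Slc2a1 and Mfsd2a, transporters of brain capillaries, were not set apart, with Slc2a1 at 85.5 and 86 against 113 and 114 CPM and Mfsd2a at 0.814 and 0 CPM.

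Within each library the cells were unlike in genes of vessel type. For venous, tip cell, capillary, arterial, lymphatic and proliferation lists, the share of a cell's UMIs was computed, and cells above a fixed share were called high for the list. These levels (0.3% venous, 0.2% tip cell, 0.3% capillary, 0.1% for the others) were set after the distributions were seen, so they cut ranges and do not define types. Venous-high cells numbered 40 of 109, or 36.7% (27.7 to 46.5), and 20 of 72, or 27.8% (17.9 to 39.6). Tip-high cells numbered 18, or 16.5% (10.1 to 24.8), and 15, or 20.8% (12.2 to 32). Capillary-high cells numbered 41, or 37.6% (28.5 to 47.4), and 33, or 45.8% (34 to 58). In fibroblasts the highest of these shares was 0.837%, for the venous list. No venous-high cell was tip-high or arterial-high in either library, while 12 of 40 and 6 of 20 were also capillary-high. Near their cuts, within 20% of the level, lay 14 and 12 cells for the capillary list, 11 and 8 for the tip list and 5 and 4 for the venous list. 15 and 9 cells were high for none of the 6 lists.

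**Figure D2:**
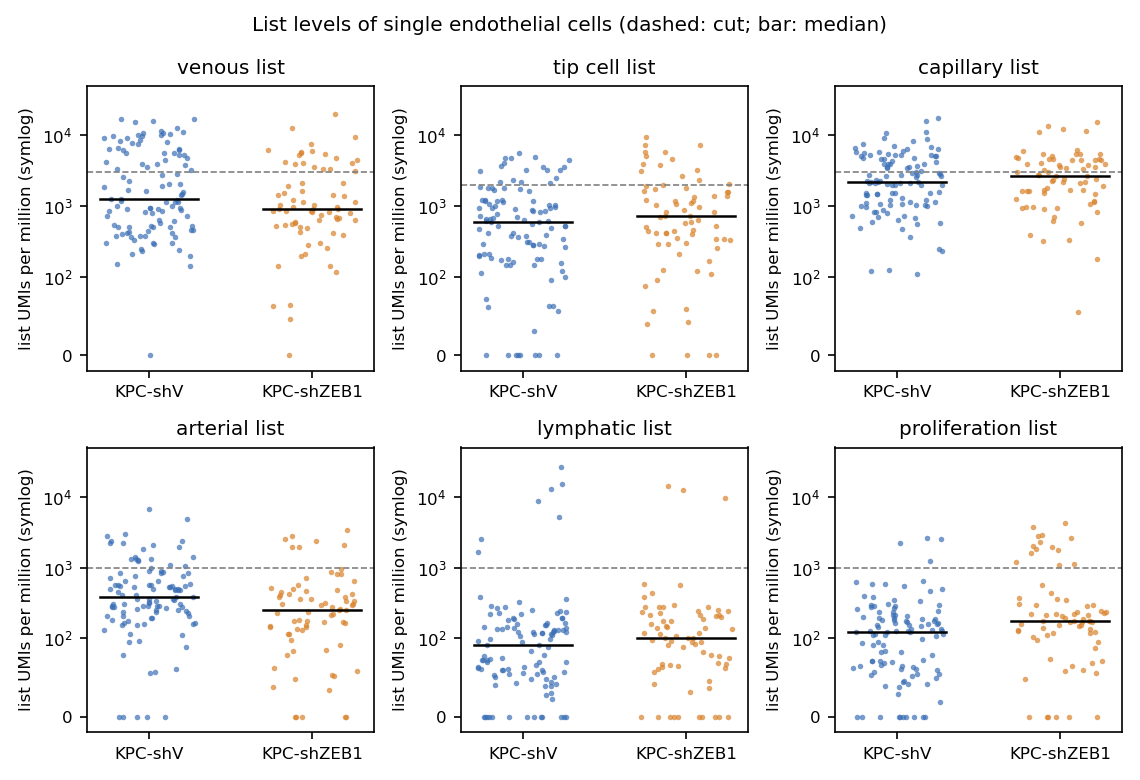
Each point is 1 endothelial cell, and the vertical axis gives the CPM of a list within that cell on a symmetric log scale that is linear below 100. Black bars are medians and dashed lines the cuts, and lymphatic and proliferation levels show a gap at the cut, with 7 and 3 cells above the lymphatic and 4 and 14 above the proliferation cut.

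Genes outside the venous, tip cell and lymphatic lists separated the venous-high from the tip-high cells in the same direction in both libraries. Cells high for the other of these lists or for lymphatic genes were left out, which left 39 and 20 venous-high cells with 719312 and 526597 UMIs and 18 and 15 tip-high cells with 539289 and 332060 UMIs. Cells high for capillary or arterial genes were kept. Of the tip-high cells, 8 of 18 and 9 of 15 were also capillary-high, and 5 and 4 were also arterial-high. The part of these cells in the differences below was not tested. Gpihbp1 led the tip-high side, at 584 and 705 CPM in tip-high and 16.7 and 5.7 CPM in venous-high cells. Igfbp3, an insulin-like growth factor binding protein, was at 2672 and 2960.3 CPM in tip-high and 197 and 96.8 CPM in venous-high cells. Ednrb, an endothelin receptor, was at 232 and 413 CPM in tip-high and 18.1 and 9.49 CPM in venous-high cells. Unc5b, a netrin receptor of sprouting vessels, was at 89 and 145 CPM in tip-high and 6.95 and 5.7 CPM in venous-high cells, and Efnb2, the arterial ephrin, at 475 and 416 CPM in tip-high and 59.8 and 24.7 CPM in venous-high cells. Gzmk, known from cytotoxic lymphocytes, was also among the 12 genes that led this side, at 185 and 154 CPM in tip-high and 4.17 and 11.4 CPM in venous-high cells, with 100 and 51 UMIs in the tip-high cells. Its annotated span (GRCm38 chromosome 13, 113171608 to 113225908, minus strand) contains that of Esm1, a tip-list gene on the plus strand that was at 1456 and 2036 CPM in these cells, so the assignment of Gzmk reads is uncertain. The T cell list summed to 10.2 and 49.2 CPM over all endothelial cells. It was at 14.8 and 27.1 CPM in tip-high and 8.34 and 96.8 CPM in venous-high cells.

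The 12 genes that led the venous-high side were Sele, Madcam1, Mctp1, Gm5127, Tll1, Csf3, Prcp, Pcdh7, Serpinb1a, Icam1, Aplnr and Tgfbr3, of which Sele, Madcam1 and Icam1 act in leukocyte capture. Sele, or E-selectin, was at 13 and 18.1 CPM in tip-high and 1020.4 and 813 CPM in venous-high cells. Madcam1, the ligand of the gut-homing integrin, was at 464 and 154 CPM in venous-high cells and had no UMI in tip-high cells. Icam1, a leukocyte integrin ligand, was at 169 and 133 CPM in tip-high and 1087 and 987 CPM in venous-high cells, whereas Icam2, another such ligand, had the opposite order at 213 and 169 against 55.6 and 89.3 CPM. Csf3, the granulocyte growth factor, was at 5.56 and 6.02 CPM in tip-high and 247 and 161 CPM in venous-high cells, and Mctp1, a calcium-binding membrane protein, at 439 and 235 CPM in tip-high and 7296 and 4375 CPM in venous-high cells. The leukocyte adhesion list summed to 9837 and 7165 CPM in venous-high and 1611 and 1749.7 CPM in tip-high cells. Basement membrane genes had the reverse order, at 13609 and 17979 CPM in tip-high and 8408 and 10237 CPM in venous-high cells, and so did VEGF receptors, at 3827 and 4821 against 2425 and 1998 CPM. Selp and Vcam1 belong to both the adhesion and the venous lists, so the adhesion sum shares genes with the choice of the cells, and Selp alone gave 5227 and 3574 CPM of it in venous-high cells. The mural list moved with the tip-high cells, at 261 and 777 CPM against 108 and 17.1 CPM in venous-high cells, and its part in these differences was not tested. Rgs5, a mural gene, was at 0 and 404 CPM in tip-high and 38.9 and 1.9 CPM in venous-high cells.

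**Figure D3:**
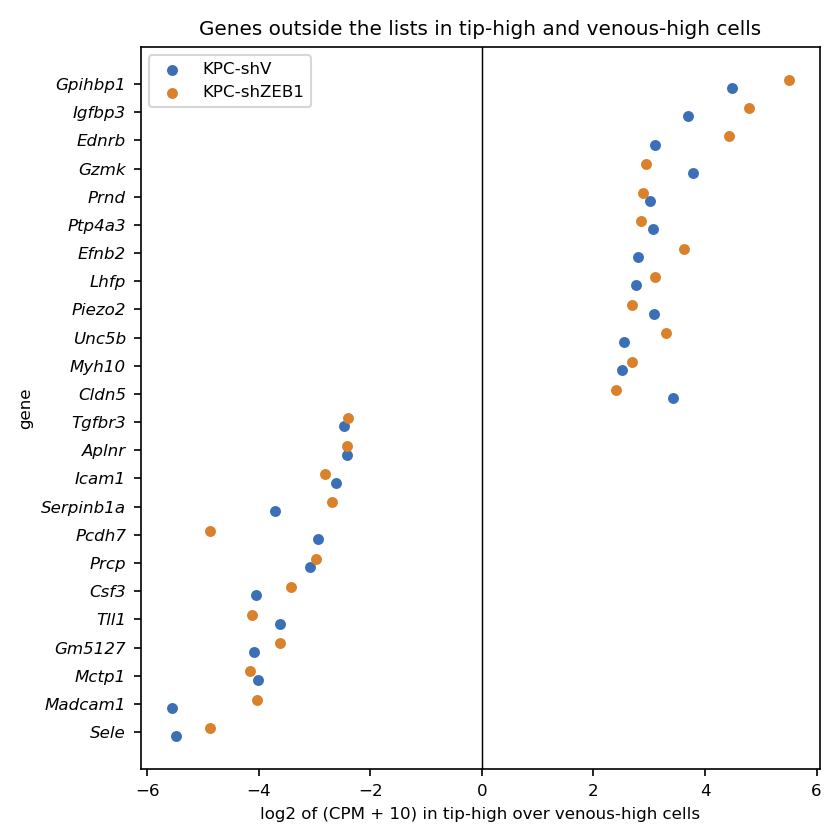
Log2 ratios, after adding 10 CPM, of tip-high over venous-high endothelial cells for the 12 highest and 12 lowest genes outside the venous, tip cell and lymphatic lists. Both libraries lie on the same side of 0 for each gene, since genes were ranked by the smaller ratio of the pair, with Gpihbp1 at 4.48 and 5.51 and Sele at -5.49 and -4.87.

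Lymphatic endothelium was rare. Above 0.1% of UMIs from the lymphatic list stood 7 cells, 6.42% (2.62 to 12.8), and 3 cells, 4.17% (0.868 to 11.7), with a gap between 0.038% and 0.168% in the first library and between 0.0579% and 0.952% in the second. These cells held 90.6% and 81.2% of all lymphatic-list UMIs of the endothelial cells. Ccl21a, the chemokine of lymphatic vessels, was at 424 and 301 CPM, and 62.2% and 52.8% of its UMIs came from a single cell. Near-identical copies of Ccl21 genes make the assignment of its reads uncertain. Prox1, the lymphatic master factor, was at 87.5 and 58.3 CPM. In fibroblasts 43.1% and 54.1% of cells passed the same cut, and Pdpn, a member of the list, stood at 1154 and 1538 CPM there. Arterial-high cells numbered 20, 18.3% (11.6 to 26.9), and 7, 9.72% (4.0 to 19), a ratio of 0.53 (0.189 to 1.3).

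A plain count of UMIs separated the cells less. With at least 3 UMIs of a list, 98.2% and 87.5% of endothelial cells counted as venous and 98.2% and 98.6% as capillary, but 83.7% and 88.9% of the deeper fibroblasts passed the venous rule too. After each cell was thinned to 1000 UMIs, at least 1 UMI of the tip list was found in 42.2% (32.8 to 52) and 52.8% (40.7 to 64.7) of endothelial cells, in 2.51% and 4.81% of fibroblasts and in 31.9% and 20.6% of B cells, which share Cxcr4 with this list. The arterial list gave 42.2% (32.8 to 52) and 40.3% (28.9 to 52.5) of endothelial cells against 14.2% and 12.6% of fibroblasts. For all 6 counts of at least 3 UMIs the interval of the ratio between libraries included 1. These intervals rest on the passing cells alone and are wide where nearly all cells pass, so they cannot decide whether the shares differ. The venous shares had intervals of their own of 93.5% to 99.8% and 77.6% to 94.1%.

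The first comparison between the libraries was of the number of endothelial cells. They made up 0.931% (0.765 to 1.12) of the kept cells labelled KPC-shV and 0.578% (0.453 to 0.728) of those labelled KPC-shZEB1, the ratio being 0.622 (0.455 to 0.845). Neutrophils, which took 4099 and 1909 kept cells, were then left out, and among the other cells the ratio was 0.477 (0.349 to 0.649). Per 100 fibroblasts there were 45.6 and 26.7 endothelial cells, and per 100 tumour epithelial cells 17.3 and 9.09. The share of released cells also follows dissociation, whose part was not tested.

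Cycling cells showed the largest ratio among the 6 lists. Proliferation-list genes gave at least 0.1% of UMIs in 4 of 109 endothelial cells, 3.67% (1.01 to 9.13), and in 14 of 72, 19.4% (11.1 to 30.5), a ratio of 5.3 (1.66 to 22.1) between shares. Fibroblasts gave 9 of 239, 3.77% (1.74 to 7.03), and 15 of 270, 5.56% (3.14 to 9.0), and B cells 0.49% and 0.735%. The lowest cycling cells stood at 0.123% and 0.11% and the highest others at 0.065% and 0.0563%. Median depths of the cycling cells were 19147.5 and 32254.5 UMIs. With every cell thinned to 1000 UMIs, at least 1 list UMI was found in 13.8% (7.91 to 21.7) and 29.2% (19 to 41.1) of endothelial cells, a ratio of 2.12 (1.04 to 4.42), and in 11.3% and 16.7% of fibroblasts. With the looser count of at least 3 UMIs, 56 of 109 and 46 of 72 cells passed, a ratio of 1.24 (0.823 to 1.87). Of the 14 cycling cells in the library labelled KPC-shZEB1, 5 were venous-high, 5 capillary-high, 1 tip-high and 0 arterial-high.

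The same genes led the comparison of single genes. Of 8264 genes with at least 50 UMIs over both libraries, 112 (1.36%) were at least 2-fold higher and 39 (0.472%) at least 2-fold lower in the library labelled KPC-shZEB1, after adding 10 CPM, and the median log2 ratio of all genes was 0.06. The share of all genes with a ratio above 1 is not given here. Counts of list genes with ratios above or below 1 are to be read beside that median. Of the 10 largest ratios, 9 belonged to genes of the cell cycle. Mki67, the proliferation antigen (GRCm38 chromosome 7, 135689784 to 135716361, minus strand), stood at 25.2 and 191 CPM with a ratio of 7.56 (5.75 to 10.1), and Top2a, topoisomerase II, at 39.9 and 214 CPM, a ratio of 5.36 (4.28 to 6.77). Hist1h1b, a replication-linked linker histone, was at 20.4 and 276 CPM, a ratio of 13.5 (10.1 to 18.5). Diaph3, Cenpf, Kif4, Prc1, Pclaf and Kif11 had ratios between 5.38 and 15.3. In fibroblasts, Mki67 had a ratio of 1.55 and Top2a of 1.2. Without the cycling cells the endothelial ratios were 1.77 for Mki67, 1.07 for Top2a and 1.41 for Hist1h1b, and Mki67 was then at 13.8 and 24.4 CPM. Those cells were chosen by their level of cell cycle genes, so ratios nearer 1 follow from the choice and test nothing.

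The other gene of these 10, Try4, is a trypsinogen of pancreatic acinar cells. It was at 2.85 and 51.5 CPM in endothelial cells and at 2.65 and 46 CPM in fibroblasts, and the acinar list summed to 42.3 and 217 CPM against 41.2 and 238 CPM. Acinar RNA stood at about the same level in both classes within each library.

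**Figure D4:**
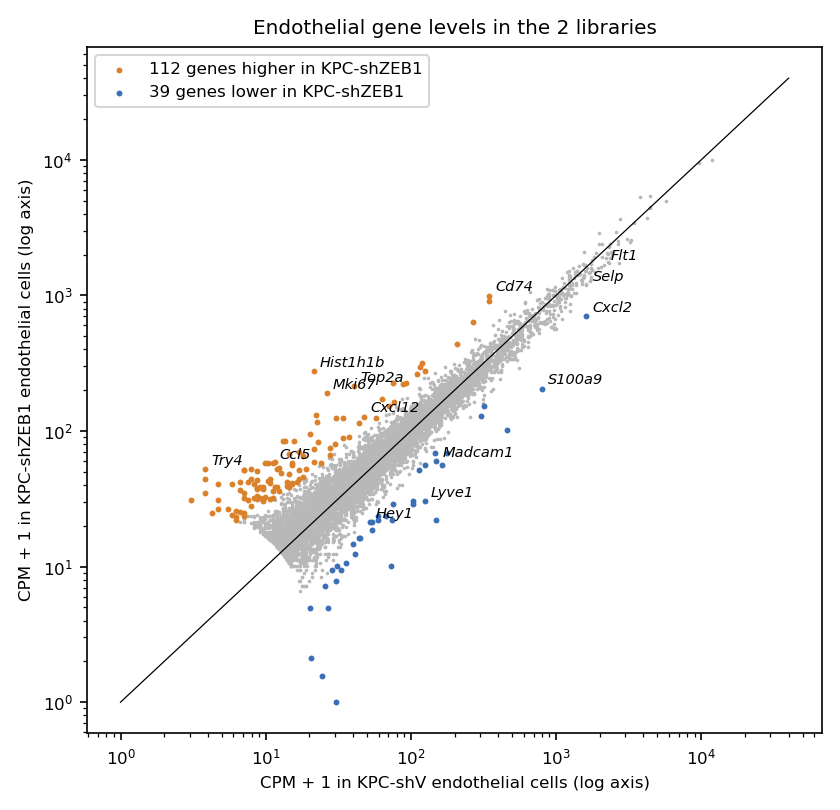
Summed CPM plus 1 of 8264 genes in endothelial cells of the library labelled KPC-shV (horizontal, log axis) against the library labelled KPC-shZEB1 (vertical, log axis), with genes at least 2-fold apart after adding 10 CPM in colour. Most genes lie along the line of equality, and cell cycle genes such as Mki67 lie above it and neutrophil genes such as S100a9 below it.

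Of the 10 smallest ratios, 5 belonged to genes that neutrophils carry. S100a9 was at 801 and 204 CPM in endothelial cells, a ratio of 0.255 (0.227 to 0.285), and at 477 and 212 CPM in fibroblasts, a ratio of 0.445. S100a8, Cxcl3, Cstdc4 and Stfa2l1 had endothelial ratios between 0.126 and 0.22. With the cells that carried other types' RNA left out, S100a9 had a ratio of 0.494 and S100a8 of 0.501, close to the fibroblast ratios. Part of those cells were chosen by their level of neutrophil genes, so a ratio nearer 1 follows in part from the choice. The neutrophils themselves were 4099 and 1909 cells.

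The other 5 genes were Lyve1, Mgp, Slc35f1, Fgl2 and F10. Lyve1, the hyaluronan receptor of lymphatic vessels, was at 124 and 29.4 CPM, a ratio of 0.238 (0.174 to 0.32), with 38.2% and 59.6% of its UMIs from 1 cell. Mgp, a matrix calcification inhibitor, was at 164 and 54.9 CPM, a ratio of 0.335 (0.265 to 0.419), in 65.1% and 62.5% of cells. Slc35f1 was at 23.6 and 0.566 CPM with 58 and 1 UMIs. Fgl2, a fibrinogen-like protein, was at 103 and 29.4 CPM, with 53.6% of its first-library UMIs from 1 cell, and F10, coagulation factor X, at 72.9 and 20.9 CPM. Mgp and F10 were also lower in fibroblasts, with ratios of 0.677 (0.658 to 0.697) and 0.567 (0.469 to 0.683). Fgl2 had a fibroblast ratio of 1.74 (1.5 to 2.02), and the fibroblast intervals of Lyve1 and Slc35f1 included 1. Background RNA was taken as the summed profile of all barcodes of a library, without a separate profile of empty droplets. All S100a8 and S100a9 of the median cell of the class were counted as background. After subtraction under this assumption, which was not tested, F10 was at 49.6 and 1.36 CPM and Mgp at 134 and 10.1 CPM. Without the cells that carried other types' RNA, the ratio was 0.0926 for Lyve1, 0.171 for Fgl2 and 0.421 for F10.

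Among lists of vessel type, venous, arterial and lymphatic genes were lower in the library labelled KPC-shZEB1. The venous list summed to 3069 and 2246.5 CPM, a ratio of 0.732 (0.704 to 0.761), and the arterial list to 686 and 388 CPM, a ratio of 0.566 (0.517 to 0.618). These intervals count UMIs and leave out the sampling of cells. The 40 and 20 venous-high cells held 80.8% and 73.4% of the venous-list UMIs. Counted by cells, the ratio of shares was 0.757 (0.419 to 1.33) for venous-high and 0.53 (0.189 to 1.3) for arterial-high cells, and both intervals included 1. All 7 venous genes had ratios below 1, and 1 was at least 2-fold lower, Ackr1, the atypical chemokine receptor of venules (GRCm38 chromosome 1, 173331886 to 173333750, minus strand), at 177 and 67.4 CPM with the ratio 0.381 (0.309 to 0.468). Selp had a ratio of 0.737 (0.699 to 0.777) and Vwf, the von Willebrand factor, of 0.641 (0.552 to 0.741). Of 8 arterial genes, 7 had ratios below 1, and Hey1 and Fbln5 were at least 2-fold lower after adding 10 CPM. Efnb2 was at 320.0 and 183 CPM, a ratio of 0.571 (0.50 to 0.651), and Hey1, a Notch target, at 50.9 and 20.4 CPM, a ratio of 0.40 (0.268 to 0.584). The lymphatic list, carried by few cells, summed to 974 and 646 CPM, a ratio of 0.664 (0.618 to 0.712), with 6 of 7 ratios not above 1 and a median log2 ratio of -0.51, which was 0.088 without the lymphatic-high cells. The median log2 ratios were -0.44 for venous and -0.70 for arterial genes, against -0.05 and 0.02 for the same genes in fibroblasts. Madcam1 was at 149 and 58.9 CPM, a ratio of 0.395 (0.315 to 0.492), and Glycam1, a ligand of L-selectin, at 19.5 and 1.13 CPM, with 66.7% of its first-library UMIs from 1 cell.

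Tip cell and capillary lists were nearer to equal. The tip cell list summed to 1231 and 1309 CPM, a ratio of 1.06 (1.01 to 1.12), and the capillary list to 3403 and 3122 CPM, a ratio of 0.917 (0.886 to 0.949). Within the tip list the genes moved apart. Apln was at 75.3 and 161 CPM, a ratio of 2.14 (1.77 to 2.59), whereas Pgf had a ratio of 0.714 (0.575 to 0.881) and Angpt2 of 0.931 (0.824 to 1.05). Capillary genes were split in the same way, with Cd300lg at a ratio of 1.71 (1.34 to 2.18), Gpihbp1 at 1.33 (1.18 to 1.49) and Fabp4 at 0.838 (0.804 to 0.873).

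Endothelial transcription factors were lower in the library labelled KPC-shZEB1 as a list, with 18 of 19 ratios below 1 and a median log2 ratio of -0.31, against -0.06 in fibroblasts. With each cell thinned to 1000 UMIs the median was -0.036. Only Sox18 was at least 2-fold lower, at 146 and 67.4 CPM, a ratio of 0.462 (0.372 to 0.57). Sox17 had a ratio of 0.585 (0.465 to 0.733), Mef2c of 0.683 (0.623 to 0.749) and Mecom of 0.745 (0.707 to 0.784), while Erg, a defining ETS factor, had a ratio of 0.955 (0.836 to 1.09) and Klf2 of 0.99 (0.91 to 1.08). Without the cycling cells Sox18 had a ratio of 0.476, Mecom of 0.829 and Mef2c of 0.758. The list was lower in the cycling cells, at 5107 and 4516 CPM, than over all endothelial cells, at 6994 and 5739 CPM.

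In the VEGF and Tie systems 0 of the 5 VEGF receptors, 3 VEGF ligands and 4 angiopoietin-Tie genes with enough UMIs were 2-fold apart. Nrp1, a VEGF co-receptor, was at 262 and 395 CPM, a ratio of 1.51 (1.35 to 1.68), Flt1 had a ratio of 0.783 (0.749 to 0.819) and Kdr, a gate gene, of 1.11 (1.01 to 1.21). Tek had a ratio of 0.947 (0.777 to 1.15). Cxcl12 was at 46.8 and 127 CPM, a ratio of 2.71 (2.15 to 3.42), and in fibroblasts 1.24. In the Notch list, Hes1, a further target, had a ratio of 0.653 (0.554 to 0.767), Dll4 of 0.777 (0.639 to 0.943) and Jag1, an opposing ligand, of 1.31 (1.03 to 1.67). The basement membrane list was higher, at 10750.4 and 12956 CPM, a ratio of 1.21 (1.18 to 1.23), with 12 of 14 ratios above 1 and 0 genes 2-fold apart. Its median log2 ratio was 0.19, against 0.06 over all genes compared. Col4a2 had a ratio of 1.36 (1.3 to 1.42) and Sparc of 1.32 (1.28 to 1.37), and in fibroblasts the list had a ratio of 1.13 (1.12 to 1.14).

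Most further lists had median log2 ratios near 0, and the ephrin list did not. Of 13 hypoxia genes only Egln3, an oxygen sensor, was 2-fold lower, at 52.9 and 17.5 CPM, and the median log2 ratio was -0.01, with Vegfa at a ratio of 1.19 (0.808 to 1.74). Of 13 genes of vascular tone and coagulation 0 were 2-fold apart, with a median of -0.01, and Edn1, the vasoconstrictor endothelin, had a ratio of 1.44 (1.19 to 1.74). Transport genes had a median of 0.01 and junction genes of -0.14. Leukocyte adhesion genes had a median of -0.11, and 2 of 12, Madcam1 and Glycam1, were 2-fold lower. Ephrin genes, 0 of 4 with a ratio above 1, summed to 478 and 316 CPM, a ratio of 0.66 (0.596 to 0.731). Genes of endothelial-mesenchymal transition had a median of 0.20, and Fn1, fibronectin, a ratio of 1.33 (1.22 to 1.44). Checkpoint ligands had a median of 0.07. Among 14 chemokine and scavenger receptor genes, Cxcl12 and Ccl5, a chemokine of T cells, were 2-fold higher and Ackr1 and Cxcl2, a neutrophil chemokine, 2-fold lower. Ccl5 stood at 10.2 and 57.2 CPM in endothelial cells and 15.5 and 46.5 CPM in fibroblasts.

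**Figure D5:**
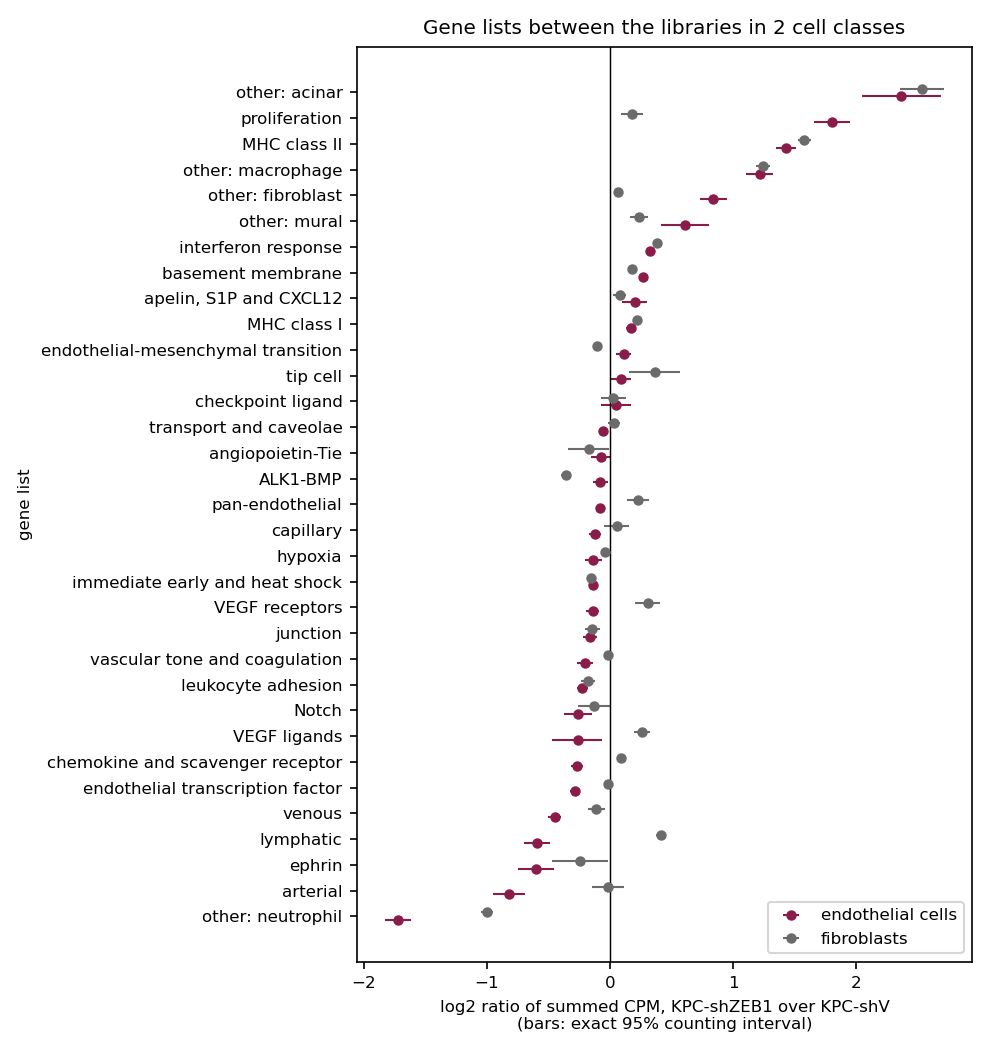
Log2 ratios of the summed CPM of gene lists, library labelled KPC-shZEB1 over library labelled KPC-shV, in endothelial cells and in fibroblasts, with exact 95% counting intervals and lists sorted by the endothelial ratio. The proliferation, arterial, ephrin and venous lists lie farther from 0 in endothelial cells than in fibroblasts, while MHC class II, macrophage and acinar lists lie at about the same place in both.

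Antigen presentation and interferon genes were higher in both classes. MHC class II genes summed to 755 and 2030.3 CPM in endothelial cells, a ratio of 2.69 (2.54 to 2.84), and to 536 and 1598 CPM in fibroblasts, a ratio of 2.98 (2.87 to 3.09). Of 7 genes, 5 were at least 2-fold higher in endothelial cells after adding 10 CPM. Cd74, the invariant chain, was at 346 and 996 CPM, and 95.4% and 100% of endothelial cells held a UMI of it. The macrophage list, another carrier of these genes, moved with them, at 448 and 1039 CPM in endothelial cells and 486 and 1150.5 CPM in fibroblasts, with 3 of 7 genes at least 2-fold higher. The B cell list, a further carrier, summed to 13.4 and 39.1 CPM in endothelial cells and 10.3 and 43.0 CPM in fibroblasts, and B cells numbered 204 and 816. The part of either cell type in the class II values was not tested. After subtraction of a library-wide background the class II sum had a ratio of 2.23 in endothelial cells and the macrophage sum of 1.37. Ciita, the class II transactivator, was at 7.33 and 20.4 CPM, a ratio of 2.78 (1.54 to 5.2).

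MHC class I genes summed to 5024 and 5644 CPM, a ratio of 1.12 (1.09 to 1.15), against 1.17 (1.15 to 1.19) in fibroblasts. B2m, the class I light chain, had a ratio of 1.24 (1.18 to 1.31) and Psmb8, an immunoproteasome subunit, of 1.64 (1.39 to 1.93). H2-K1 and the other H2 class I genes resemble each other closely, so the split of reads among them is uncertain. The interferon list had 20 of 21 ratios above 1 and 0 genes 2-fold apart, a summed ratio of 1.25 (1.22 to 1.29) and a fibroblast ratio of 1.3 (1.28 to 1.33). Its median log2 ratio was 0.33, against 0.06 over all genes compared. Iigp1, an interferon-induced GTPase, was at 985 and 1161 CPM and Cxcl10, a chemokine for activated T cells, at 441 and 771 CPM, a ratio of 1.75 (1.61 to 1.9). Cxcl9 was at 888 and 859.8 CPM, a ratio of 0.969 (0.907 to 1.03), and its UMIs came from 50.5% and 77.8% of cells. In fibroblasts Cxcl9 had a ratio of 2.79. The 9 endothelial cells of the library labelled KPC-shZEB1 that were high for none of the vessel-type lists summed to 12691 CPM of interferon genes, and the 15 of the other library to 5859 CPM. The interferon sum had the opposite order in venous-high cells, at 6405 and 5869.8 CPM, and in tip-high cells, at 6019 and 5752 CPM. In lymphatic-high cells it was at 3215 and 7011 CPM, and in cycling cells at 3589 and 7220 CPM. The highest level in a single cell was 37459 and 34470 CPM. Cd274, the PD-1 ligand gene, had a ratio of 0.874 (0.753 to 1.01).

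Some endothelial cells carried RNA of other cell types. Neutrophil-list genes gave at least 0.4% of UMIs in 9 of 109 and 1 of 72 cells, mural-list genes, of pericytes and smooth muscle, at least 0.07% in 5 and 5 cells, and tumour epithelial genes at least 0.1% in 1 and 0 cells, where a count of 0 of 72 allows a share of up to 4.17% (3 counts of the total), with an exact upper limit of 4.99%. Together these were 15 of 109 and 6 of 72 cells. The highest neutrophil-list level in a cell was 69779 and 5136 CPM, against medians of 828 and 468. Scrublet scored 0 of these 15 and 0 of these 6 cells above 0.2. Without them, the summed ratio was 3.55 for the proliferation, 0.753 for the venous and 0.497 for the arterial list. Rgs5, a pericyte gene, was at 33 and 125 CPM in endothelial cells, a ratio of 3.78 (2.91 to 4.93), with 64.2% and 49.1% of its UMIs in 1 cell. Fibroblast genes summed to 461 and 825 CPM in endothelial cells against 38088 and 39792 CPM in fibroblasts, and 47.2% of the Col1a2 UMIs of the second library came from 1 endothelial cell. Under the background assumption given above, background RNA made up an estimated 11.2% and 15.5% of endothelial UMIs and 12.2% and 15.1% of fibroblast UMIs.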

How the data were processed

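Single-cell libraries of 2 tumours were made with the 10x 3' v3.1 kit and, per the labels and the submitters' processing notes, aligned and counted with Cell Ranger 7.0.1 on mm10. The deposited values are UMI counts per gene and barcode, not normalized. Whether intron reads were counted is not given in the sources used here. A barcode was kept if it held 500 or more genes, a UMI total between 1000 and 60000, and no more than 15% of UMIs from mitochondrial genes. Doublets stayed in, and Scrublet (scanpy 1.11.5, score above 0.2) was an alternative that marked 315 and 343 kept cells. Counts were summed per cell class and library and scaled to CPM. Genes with at least 50 UMIs were compared, and 10 CPM was added before 2-fold calls. Intervals are exact (Clopper-Pearson for shares, conditional binomial for ratios, scipy 1.17.1) at 95% and cover counting error only. Each group was 1 library, so no p-value was computed. The scripts were tested on simulated data. Named genes were list members of highest level or extreme ratio, the 15 highest and 5 lowest genes against fibroblasts, and the 10 highest and 10 lowest between libraries among genes detected in at least 10% of endothelial cells of a library. The members, lists and level cuts were chosen with earlier results of these data known. Of 32285 gene IDs, 32158 matched GENCODE for coordinates.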

Additional observations from a re-analysis of the deposited data

Results flagged for a closer look

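The following endothelial ratios (library labelled KPC-shZEB1 over library labelled KPC-shV) lay on the opposite side of 1 from the fibroblast ratios, and the difference between the classes was not tested. Fgl2 had a ratio of 0.287 in endothelial cells and 1.74 in fibroblasts. Summed pan-endothelial genes had 0.946 and 1.17, VEGF ligands 0.833 and 1.2, and VEGF receptors 0.906 and 1.24. Summed lymphatic genes had 0.664 and 1.33, chemokine and scavenger receptor genes 0.830 and 1.07, and genes of endothelial-mesenchymal transition 1.08 and 0.927.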

How the results depend on the processing

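With 1 library per group, no replicate could be left out, and the counts cover only 109 and 72 cells. No paired analysis was possible because each group had 1 sample. The share of endothelial cells stayed lower in the library labelled KPC-shZEB1 under every gate, cell filter and doublet alternative run. List values here are median log2 ratios of that library over the other, and the cause of each shift was not tested. With a stricter gate they were 0.20 for VEGF receptors, 0.21 for angiopoietin-Tie, 0.062 for Notch, 0.32 for apelin, S1P and CXCL12, 0.51 for tip cell, -0.41 for arterial, 0.38 for basement membrane, 0.81 for interferon, 0.025 for immediate early (a reversal) and 0.70 for mural genes, Lyve1 reversed to 0.071, and the ratio of tip-high shares, a level chosen after seeing the data, was 2.76. Scrublet marked 0 of 109 and 1 of 72 endothelial cells, and without that 1 cell the lymphatic value was -1.10. As a mean over cells, values were 0.24 for tip cell, 0.23 for capillary, -0.15 for lymphatic, 0.050 for junction (a reversal) and -0.0099 for immediate early genes. Thinned to 1000 UMIs, 7 genes were higher and 15 lower between libraries, 123 were higher and 256 lower than in fibroblasts, and values were -0.76 for venous, 0.36 for basement membrane, -0.64 for leukocyte adhesion, -0.036 for transcription factor and -0.014 for immediate early genes. With background RNA subtracted, 100 genes were lower, and values were 0.80 for MHC class II, 0.11 for macrophage and -0.49 for tumour epithelial genes (a reversal). Without cells with Prox1 and 3 lymphatic UMIs, values were -0.23 for venous and 0.0032 for junction genes (a reversal). Without cells with 3 proliferation UMIs, 48 genes were higher and 90 lower, and values were 0.21 for VEGF receptors, 0.071 for Notch, 0.31 for apelin, S1P and CXCL12, 0.41 for tip cell, -0.63 for venous, 0.32 for capillary, -2.46 for lymphatic, 0.39 for basement membrane, 0.72 for interferon, -0.12 for transcription factor and -0.026 for immediate early genes, with Hist1h1b at -0.20, Top2a at -0.053 and Kif4 at -0.28 reversed. With at least 200 UMIs, 28 genes were higher and 18 lower, and with 1 CPM added, 229 and 88. Of alternatives chosen after seeing the data, leaving out cells with other types' RNA gave -0.72 for neutrophil genes, leaving out cycling cells gave 58 higher genes, 0.16 for proliferation and -0.058 for immediate early genes, with Diaph3 at -0.25 and Kif11 at -0.018 reversed, and leaving out lymphatic-high cells gave 0.088 for lymphatic genes (a reversal). Where cells were left out by their level of a list, a shift of that list's genes follows from the choice.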
